A study of Rattus norvegicus with 18 samples.

Results

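Primary hepatocytes of Wistar rats, the cells that carry out most of the liver's metabolism, were cultured with EMD, which activates both PPARα and PPARγ, nuclear receptors that control genes of fat metabolism. All cultures had a 24 h attachment period and then a medium with gentamicin, insulin and hydrocortisone. The 6 groups were 0.1% DMSO as the vehicle, 30 µM EMD and 100 µM EMD, each for 24 h and for 72 h, with 3 arrays in each group. The labels give neither the sex nor the age of the rats. The genes described here are 37 genes of the actin cytoskeleton, the transforming growth factor β (TGFβ) pathway and the mesenchymal programme, chosen by name and not by a cut on their values. Earlier results of these data were known at that choice, so shares set beside those of all genes are no independent evidence. A member was read through the probe set with 1 gene symbol and the highest mean over the 18 arrays, which gave 34 of the 37 members among 14217 genes measured in this way. Actb, the cytoplasmic β-actin, and Cfl1, the filament-severing cofilin, were matched only by probe sets that carry several gene symbols and have no value here. Tgfbr2, the second TGFβ receptor, was not analysed here.

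Actin filaments give a cell its shape and its pull on the substrate, and they end in focal adhesions, where vinculin, zyxin and α-actinin tie them to integrins. Tension in the filaments is known to turn on genes through more than one route: the factor SRF binds CArG boxes and TEAD factors with the coactivator YAP bind MCAT elements, and Ccn1 and Ccn2 are well known targets. TGFβ ligands act through the receptors Tgfbr1 and Tgfbr2 and the Smad proteins, Smad7 inhibits this signal, and prolonged TGFβ signalling is known to give epithelial cells mesenchymal features such as Vim. Hepatocytes that spread on a dish are known to build up actin bundles and to lose part of their liver functions with time.

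The 250 bases before the start of transcription were read for the 27 members that the RefSeq promoter table (assembly GRCr8) holds, and 28 promoters were searched because Zyx has 2 starts. The 3 motifs were the CArG box in its strict form CCWWWWWWGG (W for A or T), the MCAT element CATTCC and the Smad core CAGAC, each on both strands. Sites that differ from these letters, lie outside the window or belong to the 7 measured members without a promoter in the table were not counted. The following promoters are shown for the targets Ccn1 and Ccn2, for Tpm1 and Vcl, which went in opposite directions with EMD, and for Actg1. Of the members searched, only Actg1 had a full match to the strict CArG box in this window, which does not show that the others lack such a site. Each is 5′ to 3′ on the gene's strand, and capitals mark an MCAT element (CATTCC or GGAATG) or, in Actg1, the CArG box.
Ccn1 promoter (chr2:237225690-237225939, minus strand): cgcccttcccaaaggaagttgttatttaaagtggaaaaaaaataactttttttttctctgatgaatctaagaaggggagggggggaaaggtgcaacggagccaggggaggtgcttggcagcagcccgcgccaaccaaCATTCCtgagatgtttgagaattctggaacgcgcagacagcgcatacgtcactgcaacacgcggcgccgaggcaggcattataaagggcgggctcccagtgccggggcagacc
Ccn2 promoter (chr1:22624615-22624864, minus strand): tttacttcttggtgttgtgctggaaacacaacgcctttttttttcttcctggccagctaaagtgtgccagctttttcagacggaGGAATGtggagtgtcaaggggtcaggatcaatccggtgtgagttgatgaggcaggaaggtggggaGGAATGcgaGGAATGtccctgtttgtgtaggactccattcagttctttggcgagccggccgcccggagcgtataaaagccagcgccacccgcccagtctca
Tpm1 promoter (chr8:76543416-76543665, minus strand): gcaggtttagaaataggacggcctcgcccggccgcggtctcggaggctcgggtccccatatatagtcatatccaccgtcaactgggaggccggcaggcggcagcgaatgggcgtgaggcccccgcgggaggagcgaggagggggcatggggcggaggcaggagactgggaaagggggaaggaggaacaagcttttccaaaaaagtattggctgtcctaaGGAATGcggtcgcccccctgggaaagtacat
Vcl promoter (chr15:3404801-3405050, minus strand): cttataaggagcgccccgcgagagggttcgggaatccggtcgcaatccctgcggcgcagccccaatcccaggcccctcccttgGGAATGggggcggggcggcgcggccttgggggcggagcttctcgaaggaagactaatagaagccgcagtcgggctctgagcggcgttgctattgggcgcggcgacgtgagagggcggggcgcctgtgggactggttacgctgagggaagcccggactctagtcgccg
Actg1 promoter (chr10:106120952-106121201, minus strand): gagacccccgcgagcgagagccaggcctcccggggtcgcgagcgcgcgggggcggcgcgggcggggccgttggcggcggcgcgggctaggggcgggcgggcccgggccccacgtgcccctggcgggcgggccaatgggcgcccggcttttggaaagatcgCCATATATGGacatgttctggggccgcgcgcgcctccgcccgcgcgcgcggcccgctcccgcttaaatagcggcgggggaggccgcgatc
The Ccn2 promoter holds 3 MCAT elements, with first bases at -166, -101 and -92 relative to the start, and those of Ccn1, Tpm1 and Vcl hold 1 each. An MCAT element lay in 11 of the 28 promoters of members (39.3%), against 12.1% of all 33469 promoters of the table. The Smad core lay in 11 of 28 (39.3%), against 42.9% of all, and the CArG box in 1 of 28 (3.57%), against 1.5% of all. Among members called at 72 h with either dose of EMD (adjusted p under 0.05 in limma's test), the MCAT element was present in 8 of 16 that were lower and in 1 of 2 that were higher, and it was present in 2 of 9 that were not called. The Smad core was present in 9 of the 16 that were lower, in 1 of 2 that were higher and in 1 of 9 that were not called. These matches describe letters in a window and were not tested as binding sites.

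Values are log2 expression estimates and a difference of 1 is a factor of 2. Changes are EMD minus DMSO between group means ± standard error (SE) of limma's fit, with 3 arrays in each group. A gene was called, and rose or fell, where its p adjusted over all probe sets was under 0.05. Array medians ran from 5.04 to 5.11, and a level near it does not show signal over background. Over the 18 arrays the highest members were Actg1, Anxa2, Krt18, Krt8 and Fn1, with means of 13.06 to 13.58. Smad7, Tgfb1, Tpm2, S100a4, Col1a1, Lgals1 and Anxa1 had means of 4.14 to 4.86, under the array medians. The comparisons of both doses with DMSO at one time share the DMSO arrays, so they are not independent of each other.

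Among the members falls outnumbered rises in all 4 comparisons of EMD with DMSO. With 30 µM EMD at 24 h, 1 member rose and 7 fell, where the shares over all genes were 4.37% higher and 2.86% lower. With 100 µM EMD at 24 h, 1 rose and 8 fell, against 3.91% and 4.33% of all genes. At 72 h, 1 member rose and 19 of 34 fell with 30 µM EMD, against 9.44% higher and 13% lower over all genes. With 100 µM EMD at 72 h, 2 rose and 13 fell, against 9.24% higher and 13% lower. The 34 members had a median change at 24 h of -0.11 with 30 µM EMD and -0.26 with 100 µM EMD, against -0.04 and -0.03 over all genes. Their median change at 72 h was -0.78 with 30 µM EMD and -0.53 with 100 µM EMD, against -0.01 and 0.02 over all genes. Estimates were below 0 for 24 and 27 members at 24 h and for 30 and 27 at 72 h, 30 µM EMD being given before 100 µM. Members moved together within arrays, and they did so by replicate number in all 6 groups. In replicate 1 of a group 25 to 30 members lay above their group mean, and in replicate 2 only 4 to 8. The highest count, 30, was reached in replicate 1 of both DMSO and 100 µM EMD at 72 h. Counts of signs or of unadjusted p, here and below, are thus not of independent genes, and no such share over all genes is given. Leaving out 1 array at a time, the 8 calls of 30 µM EMD at 24 h became 1 to 6, with 1 left without EMD 30 µM 24 h replicate 2. The 9 calls of 100 µM EMD at 24 h became 4 to 9 (4 without DMSO 24 h replicate 1), the 20 calls of 30 µM EMD at 72 h became 12 to 21 (12 without DMSO 72 h replicate 1), and the 15 calls of 100 µM EMD at 72 h became 12 to 18. Without any single array, and in the order of these comparisons, 1 of 8, 4 of 9, 11 of 20 and 12 of 15 calls held throughout.

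The study's methods describe cells of each animal as given every treatment, and the titles number the cultures of each group 1 to 3, without stating that a number stands for an animal. With this number as a replicate block in the fit, 13 and 12 members were called at 24 h with 30 and 100 µM EMD (7.56% and 8.52% of all probe sets), and 25 and 23 at 72 h (20.7% and 21.2% of all probe sets). The block kept all calls made without it. It was not part of the fits that left out single arrays, so how far the blocked calls rest on 1 array was not tested. Where the block or another alternative called a member that the fit without it did not, its adjusted p is given beside that member.

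**Figure D1:**
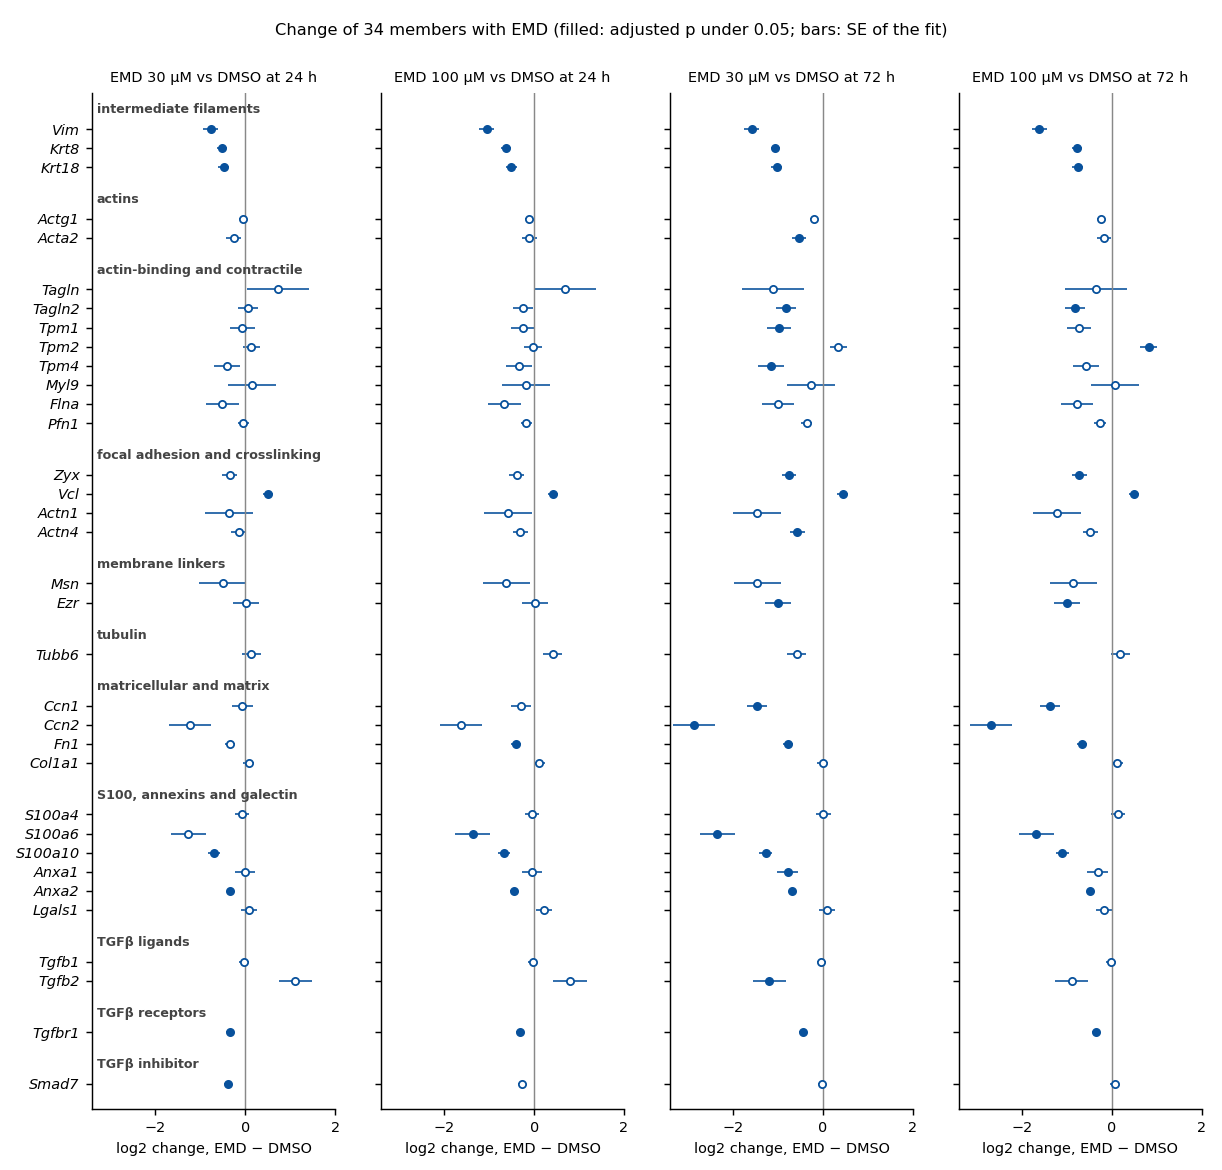
Change of each of the 34 measured members (rows, grouped by role) in the 4 comparisons of EMD with DMSO, as the log2 difference between group means with its SE, and with filled points for adjusted p under 0.05. At 72 h most points lie left of 0, with Ccn2 lowest in both panels, while Vcl lies right of 0 in every panel.

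Ccn2 had the largest fall of the members at 72 h with either dose. Ccn2 (connective tissue growth factor), a secreted protein that promotes matrix deposition, is a known target of TGFβ and of TEAD factors. At 24 h its values were 12.75, 12.13 and 11.79 with DMSO, 11.60, 9.98 and 11.38 with 30 µM EMD and 11.15, 9.97 and 10.68 with 100 µM EMD, so that every array with EMD was lower than every array with DMSO. These changes of -1.24 ± 0.47 and -1.62 ± 0.47 did not pass the test (adjusted p = 0.166 with 30 µM and 0.0505 with 100 µM). Both were called with the replicate block (adjusted p = 0.00937 and 0.000987). The change with 100 µM EMD was also called with array medians made equal, in a fit of the compared arrays alone, with array weights, with dim probe sets left out (adjusted p = 0.0231 to 0.0468) and without EMD 100 µM 24 h replicate 1 (adjusted p = 0.0441). At 72 h Ccn2 stood at 13.09, 13.03 and 12.99 with DMSO, 11.03, 9.46 and 10.004 with 30 µM EMD and 11.28, 9.88 and 9.91 with 100 µM EMD. The DMSO arrays lay close together and the EMD arrays lay far below them. Ccn2 fell by 2.87 ± 0.47 with 30 µM EMD, a 7.31-fold difference (adjusted p = 0.000323), and fell by 2.68 ± 0.47 with 100 µM EMD, a 6.41-fold difference (adjusted p = 0.000631).

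Ccn1 (Cyr61), the related matricellular protein, gave at 24 h 7.34, 6.97 and 7.14 with DMSO, 7.31, 6.63 and 7.32 with 30 µM EMD and 6.59, 6.90 and 7.06 with 100 µM EMD, and the groups overlapped. At 72 h it gave 9.60, 9.31 and 9.05 with DMSO, 8.19, 7.49 and 7.85 with 30 µM EMD and 8.39, 7.72 and 7.73 with 100 µM EMD, and no EMD array reached a DMSO array. Ccn1 fell at 72 h by 1.47 ± 0.23 with 30 µM EMD (adjusted p = 0.000194) and by 1.37 ± 0.23 with 100 µM EMD (adjusted p = 0.000397). Fn1, fibronectin, which hepatocytes secrete into plasma and lay down as matrix, fell at 72 h by 0.78 ± 0.11 and 0.66 ± 0.11 with 30 and 100 µM EMD (adjusted p = 8.62e-05 and 0.000444). At 24 h Fn1 changed by -0.34 ± 0.11 with 30 µM EMD (adjusted p = 0.0928) and fell by 0.40 ± 0.11 with 100 µM EMD (adjusted p = 0.0423). The 24 h call of Fn1 was lost without EMD 100 µM 24 h replicate 1, 2 or 3 or DMSO 24 h replicate 1, 2 or 3 (adjusted p = 0.0616 to 0.146) and after cyclic loess (adjusted p = 0.118). Col1a1, a chain of fibrillar collagen I, had group means of 4.21 to 4.42, under the array median, and its changes of -0.00 to 0.12 were not called.

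**Figure D2:**
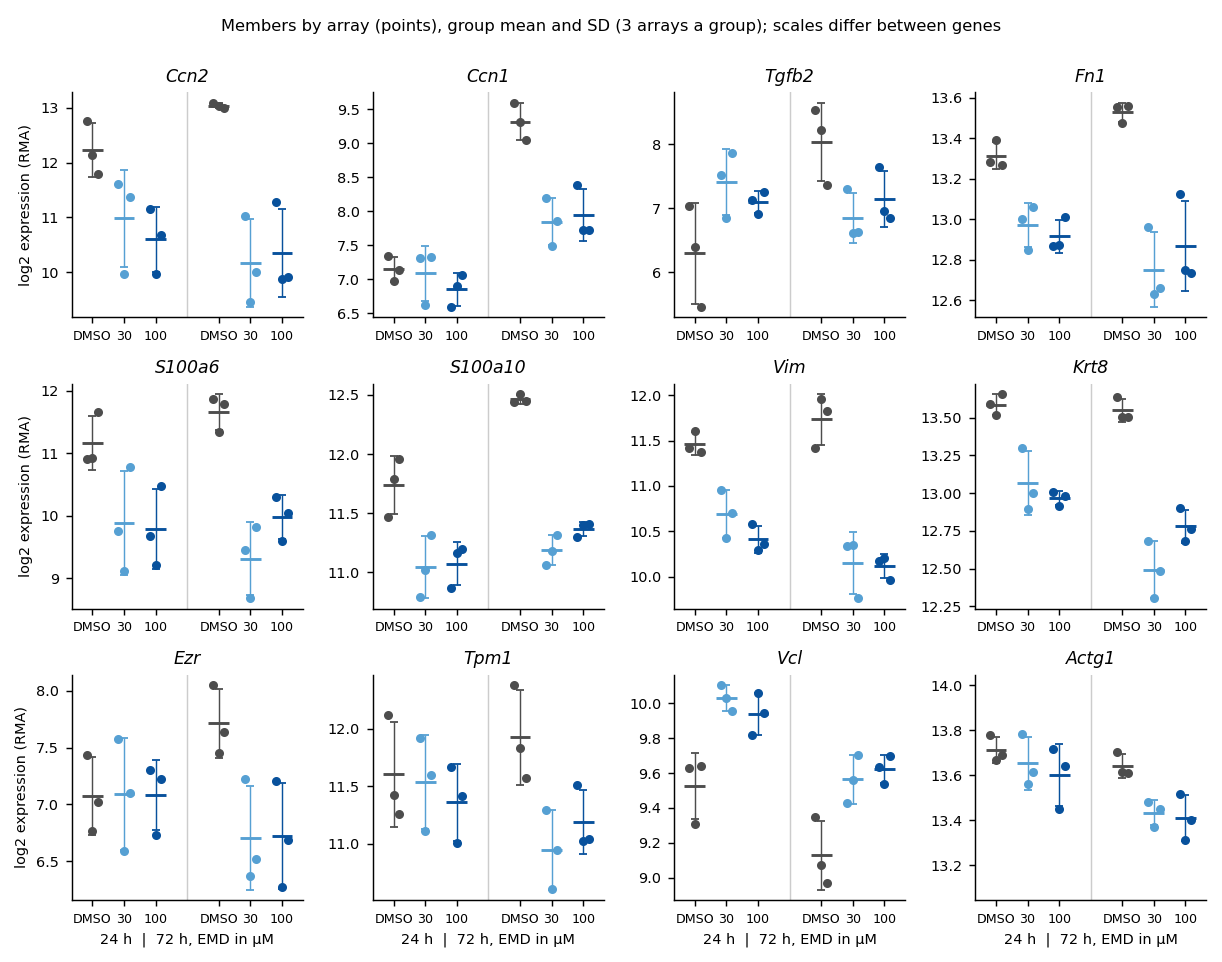
Log2 expression of 12 members in each of the 18 arrays (points, in replicate order), with the group mean (line) and SD (bars), for DMSO, 30 µM EMD and 100 µM EMD at 24 h (left of the grey line) and 72 h (right of it). For Ccn2, Ccn1, S100a6, S100a10, Vim and Krt8 the EMD arrays at 72 h all lie under the DMSO arrays, while the scale differs between genes.

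Of the 6 S100, annexin and galectin members, which bind calcium, phospholipids or sugars, 4 fell with 30 µM EMD and 3 with 100 µM EMD at 72 h. Over all genes 13% fell with each dose at that time. S100a6 (calcyclin) had values at 24 h of 10.90, 10.92 and 11.65 with DMSO, 9.75, 9.12 and 10.78 with 30 µM EMD and 9.68, 9.22 and 10.48 with 100 µM EMD. It had at 72 h 11.87, 11.34 and 11.78 with DMSO, 9.45, 8.68 and 9.82 with 30 µM EMD and 10.29, 9.60 and 10.04 with 100 µM EMD, with all EMD arrays under all DMSO arrays at both times. Its change at 24 h was -1.27 ± 0.39 with 30 µM EMD (adjusted p = 0.0721), and it fell by 1.37 ± 0.39 with 100 µM EMD (adjusted p = 0.0476). The change with 30 µM EMD was called with the replicate block (adjusted p = 0.000864), with dim probe sets left out (adjusted p = 0.0498) and without EMD 30 µM 24 h replicate 3 (adjusted p = 0.0133). It fell at 72 h by 2.35 ± 0.39 (adjusted p = 0.000375) and 1.68 ± 0.39 (adjusted p = 0.0057), which are 5.09-fold and 3.21-fold lower with 30 and 100 µM EMD. The 24 h call of S100a6 was lost without EMD 100 µM 24 h replicate 1 or 2 or DMSO 24 h replicate 1, 2 or 3 (adjusted p = 0.0694 to 0.22) and with array weights, after cyclic loess or with robust moderation along an intensity trend (adjusted p = 0.0605 to 0.147). It was also lost where probe sets of a gene were averaged (adjusted p = 0.0501). S100a6 has 1 probe set, so its change stayed the same in that fit.

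S100a10 forms a complex with Anxa2 at the inner face of the plasma membrane, and both fell in all 4 comparisons. S100a10 measured at 24 h 11.47, 11.79 and 11.96 with DMSO, 10.79, 11.02 and 11.32 with 30 µM EMD and 10.87, 11.16 and 11.19 with 100 µM EMD. At 72 h it measured 12.44, 12.51 and 12.44 with DMSO, 11.06, 11.18 and 11.32 with 30 µM EMD and 11.30, 11.40 and 11.41 with 100 µM EMD, and in neither period did EMD and DMSO arrays overlap. S100a10 fell by 0.69 ± 0.14 and 0.67 ± 0.14 at 24 h (adjusted p = 0.00401 and 0.00537) and by 1.28 ± 0.14 and 1.10 ± 0.14 at 72 h (adjusted p = 3.97e-06 and 2.41e-05), with the value of 30 µM EMD given before that of 100 µM. Its 24 h call with 30 µM EMD was lost in a fit of the compared arrays alone (adjusted p = 0.0621). Anxa2 fell by 0.33 ± 0.08 and 0.45 ± 0.08 at 24 h and by 0.68 ± 0.08 and 0.48 ± 0.08 at 72 h, with the largest adjusted p, 0.0204, for 30 µM EMD at 24 h. That call was lost without EMD 30 µM 24 h replicate 2 or 3 or DMSO 24 h replicate 1 or 3 (adjusted p = 0.0685 to 0.11) and in a fit of the compared arrays alone or as the mean of all its probe sets (adjusted p = 0.103 to 0.225). The call of Anxa2 with 100 µM EMD at 24 h was lost as the mean of all its probe sets (adjusted p = 0.347); its other probe set had a mean of 4.98 over the arrays.

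Anxa1, a relative of Anxa2 with a known part in limiting inflammation, stood at 24 h at 4.46, 4.40 and 4.58 with DMSO, 4.49, 4.36 and 4.57 with 30 µM EMD and 4.37, 4.30 and 4.62 with 100 µM EMD, all under the array median. Its values at 72 h were 6.02, 6.02 and 4.85 with DMSO, 4.75, 4.999 and 4.78 with 30 µM EMD and 5.44, 5.54 and 4.97 with 100 µM EMD, so that the third DMSO array lay among the EMD arrays. It fell by 0.79 ± 0.23 with 30 µM EMD at 72 h (adjusted p = 0.025), and with 100 µM EMD it changed by -0.31 ± 0.23 (adjusted p = 0.421), which became -0.70 and a call without DMSO 72 h replicate 3 (adjusted p = 0.00363) and was called with array weights (adjusted p = 0.0412). The call was lost without EMD 30 µM 72 h replicate 1 or 3 or DMSO 72 h replicate 1 or 2 (adjusted p = 0.0749 to 0.131) and in a fit of the compared arrays alone (adjusted p = 0.12). S100a4 and Lgals1 (galectin 1), both known from mesenchymal cells, were under the array median in every group mean and were called in none of the 4 comparisons.

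All 3 intermediate filament genes fell at both doses and both times. Vim, the filament of mesenchymal cells, had values at 24 h of 11.42, 11.61 and 11.38 with DMSO, 10.95, 10.43 and 10.70 with 30 µM EMD and 10.58, 10.29 and 10.36 with 100 µM EMD. Its values at 72 h were 11.42, 11.95 and 11.83 with DMSO, 10.34, 10.35 and 9.76 with 30 µM EMD and 10.18, 10.21 and 9.97 with 100 µM EMD, with no overlap between EMD and DMSO. Vim fell at 24 h by 0.77 ± 0.17 and 1.05 ± 0.17 with 30 and 100 µM EMD (adjusted p = 0.0106 and 0.000769). It fell at 72 h by 1.58 ± 0.17 and 1.62 ± 0.17 (adjusted p = 4.59e-06 and 4.78e-06), 3-fold and 3.06-fold. The 24 h call with 30 µM EMD was lost without EMD 30 µM 24 h replicate 2 or DMSO 24 h replicate 2 (adjusted p = 0.0526 to 0.0761).

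Krt8 and Krt18 pair to form the keratin filaments of simple epithelia, hepatocytes included, so they are epithelial and not mesenchymal genes. Krt8 gave at 24 h 13.59, 13.52 and 13.66 with DMSO, 13.30, 12.90 and 13.004 with 30 µM EMD and 13.01, 12.91 and 12.98 with 100 µM EMD. At 72 h Krt8 gave 13.64, 13.50 and 13.51 with DMSO, 12.68, 12.31 and 12.48 with 30 µM EMD and 12.90, 12.68 and 12.76 with 100 µM EMD, and every EMD array was below every DMSO array at both times. Krt8 fell by 0.52 ± 0.11 and 0.62 ± 0.11 at 24 h and by 1.06 ± 0.11 and 0.77 ± 0.11 at 72 h with 30 and 100 µM EMD, with adjusted p from 0.00718 for 30 µM at 24 h to 2.91e-06 for 30 µM at 72 h.

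Krt18 gave at 24 h 13.75, 13.62 and 13.65 with DMSO, 13.32, 13.07 and 13.21 with 30 µM EMD and 13.24, 13.07 and 13.20 with 100 µM EMD. At 72 h Krt18 gave 13.82, 13.50 and 13.55 with DMSO, 12.77, 12.34 and 12.67 with 30 µM EMD and 12.99, 12.70 and 12.88 with 100 µM EMD, again without overlap between EMD and DMSO. It fell by 0.48 ± 0.12 and 0.51 ± 0.12 at 24 h and by 1.03 ± 0.12 and 0.76 ± 0.12 at 72 h (adjusted p = 0.024, 0.0147, 9.99e-06 and 0.000235), close to the changes of its partner Krt8. At 24 h with 30 µM EMD the call of Krt8 was lost without EMD 30 µM 24 h replicate 2 (adjusted p = 0.0557) and in a fit of the compared arrays alone (adjusted p = 0.0518), and that of Krt18 without EMD 30 µM 24 h replicate 2 or 3 or DMSO 24 h replicate 1 or 3 (adjusted p = 0.0587 to 0.128) and after cyclic loess (adjusted p = 0.0618). With 100 µM EMD at 24 h the call of Krt18 was lost without EMD 100 µM 24 h replicate 2 or DMSO 24 h replicate 1 (adjusted p = 0.0607 to 0.0778).

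Of the actins, Acta2 passed the test in 1 comparison and Actg1 in none. Actg1, the cytoplasmic γ-actin, had values at 24 h of 13.78, 13.67 and 13.69 with DMSO, 13.78, 13.56 and 13.61 with 30 µM EMD and 13.72, 13.45 and 13.64 with 100 µM EMD. At 72 h they were 13.70, 13.61 and 13.61 with DMSO, 13.48, 13.37 and 13.45 with 30 µM EMD and 13.52, 13.31 and 13.40 with 100 µM EMD, and the 72 h EMD arrays lay below the DMSO arrays by a small margin. Its changes were -0.06 ± 0.09 and -0.11 ± 0.09 at 24 h, then -0.21 ± 0.09 and -0.23 ± 0.09 at 72 h, and none passed the test (adjusted p = 0.128 and 0.085 at 72 h). The 72 h change of Actg1 with 100 µM EMD was called after cyclic loess (adjusted p = 0.0191), with the replicate block (adjusted p = 0.0288), with array weights (adjusted p = 0.0355) and without EMD 100 µM 72 h replicate 1 (adjusted p = 0.0475). Some probe sets left out here carry the symbols of both Actg1 and Actb, and whether the Actg1 probe set takes signal of Actb was not tested. The control probe sets for β-actin lie outside the rule for members and were not tested. The 3′ one averaged 13.15 ± 0.08 with DMSO, 12.91 ± 0.17 with 30 µM EMD and 12.84 ± 0.14 with 100 µM EMD at 24 h (SD, n = 3 each). At 72 h it averaged 13.56 ± 0.07 with DMSO, 13.16 ± 0.10 with 30 µM EMD and 13.25 ± 0.10 with 100 µM EMD. The middle one averaged 13.36 ± 0.09 with DMSO, 12.83 ± 0.14 with 30 µM EMD and 12.92 ± 0.11 with 100 µM EMD at 72 h, and the 5′ one 12.86 ± 0.12, 12.31 ± 0.14 and 12.40 ± 0.10 in the same groups. In each of the 3 probe sets every EMD array at 72 h was below every DMSO array.

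Acta2, smooth muscle α-actin and a mark of myofibroblasts, was present at a middling level. It measured at 24 h 6.73, 6.35 and 6.38 with DMSO, 6.25, 6.19 and 6.25 with 30 µM EMD and 6.66, 6.15 and 6.33 with 100 µM EMD. Its 72 h values were 6.57, 6.11 and 5.98 with DMSO, 5.99, 5.61 and 5.46 with 30 µM EMD and 6.05, 6.13 and 5.95 with 100 µM EMD, and the groups overlapped. Acta2 fell by 0.53 ± 0.16 with 30 µM EMD at 72 h (adjusted p = 0.0335), and with 100 µM EMD it changed by -0.18 ± 0.16 (adjusted p = 0.547). The call was lost without EMD 30 µM 72 h replicate 2 or 3 or DMSO 72 h replicate 1 (adjusted p = 0.108 to 0.18) and in a fit of the compared arrays alone (adjusted p = 0.1).

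Of the 8 measured genes of actin-binding and contractile proteins, none was called at 24 h by limma, and at an unadjusted p under 0.05 there were 0 with 30 µM and 0 with 100 µM EMD. At 72 h 3 fell with 30 µM EMD, against 13% of all genes. With 100 µM EMD 1 rose and 1 fell, near the shares of 9.24% higher and 13% lower over all genes. Tropomyosins coil along the filament and steady it. Tpm1 gave at 24 h 12.12, 11.43 and 11.26 with DMSO, 11.92, 11.11 and 11.59 with 30 µM EMD and 11.67, 11.005 and 11.41 with 100 µM EMD, and at 72 h 12.38, 11.83 and 11.57 with DMSO, 11.30, 10.60 and 10.94 with 30 µM EMD and 11.51, 11.02 and 11.04 with 100 µM EMD. It fell by 0.98 ± 0.27 with 30 µM EMD at 72 h (adjusted p = 0.0174) and changed by -0.74 ± 0.27 with 100 µM EMD (adjusted p = 0.0736), a change called with the replicate block (adjusted p = 0.000563), with array weights (adjusted p = 0.0164) and without EMD 100 µM 72 h replicate 1 or DMSO 72 h replicate 3 (adjusted p = 0.0435 to 0.0443). A second bright probe set of Tpm1 changed by -1.01 ± 0.25 and -0.80 ± 0.25, both called (adjusted p = 0.00833 and 0.0347). The call of Tpm1 was lost without EMD 30 µM 72 h replicate 2 or 3 or DMSO 72 h replicate 1 (adjusted p = 0.0514 to 0.0973) and as the mean of all its probe sets (adjusted p = 0.0814).

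Tpm4, a tropomyosin of non-muscle cells, gave at 24 h 11.71, 10.85 and 11.17 with DMSO, 11.36, 10.44 and 10.70 with 30 µM EMD and 11.32, 10.63 and 10.76 with 100 µM EMD, and the groups overlapped. At 72 h Tpm4 gave 11.84, 11.01 and 10.93 with DMSO, 10.51, 9.79 and 10.02 with 30 µM EMD and 10.80, 10.65 and 10.60 with 100 µM EMD, where all EMD arrays were lower than all DMSO arrays. It fell by 1.15 ± 0.28 with 30 µM EMD at 72 h (adjusted p = 0.00859), changed by -0.57 ± 0.28 with 100 µM EMD (adjusted p = 0.198, and 0.00291 with the replicate block), and the fall was called on its other probe set too (-1.14 ± 0.30, adjusted p = 0.0122). The call was lost without EMD 30 µM 72 h replicate 2 or DMSO 72 h replicate 1 (adjusted p = 0.0513 to 0.0543). Tpm2 (β-tropomyosin) went the other way from a low level. Its values were 4.35, 4.004 and 3.97 with DMSO, 4.36, 3.93 and 4.45 with 30 µM EMD and 4.07, 4.09 and 4.07 with 100 µM EMD at 24 h and 4.66, 4.28 and 4.08 with DMSO, 4.44, 4.69 and 4.93 with 30 µM EMD and 5.57, 4.78 and 5.12 with 100 µM EMD at 72 h. Tpm2 rose by 0.82 ± 0.20 with 100 µM EMD at 72 h (adjusted p = 0.00721), to a level at the array median, while its other probe set changed by 0.10 ± 0.12 (adjusted p = 0.662). The rise was not called in a fit of the compared arrays alone (adjusted p = 0.0581).

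Tagln2, a relative of the actin-bundling protein transgelin, gave at 24 h 10.89, 10.47 and 10.37 with DMSO, 10.85, 10.27 and 10.74 with 30 µM EMD and 10.52, 9.997 and 10.46 with 100 µM EMD. At 72 h it gave 11.47, 11.38 and 10.64 with DMSO, 10.53, 10.26 and 10.23 with 30 µM EMD and 10.68, 10.17 and 10.20 with 100 µM EMD, and the lowest DMSO array overlapped the highest array with 100 µM EMD. Tagln2 fell at 72 h by 0.83 ± 0.22 and 0.81 ± 0.22 with 30 and 100 µM EMD (adjusted p = 0.0155 and 0.0168). The call with 30 µM EMD was lost without EMD 30 µM 72 h replicate 2 or 3 or DMSO 72 h replicate 1 or 2 (adjusted p = 0.0581 to 0.0817), and that with 100 µM EMD without EMD 100 µM 72 h replicate 2 or 3 or DMSO 72 h replicate 1 or 2 (adjusted p = 0.0733 to 0.0832) and in a fit of the compared arrays alone (adjusted p = 0.0743). Tagln itself, best known from smooth muscle, spread more within groups than any other member, from 7.15 to 9.47 in DMSO at 24 h, and its changes of 0.72 ± 0.69, 0.69 ± 0.69, -1.12 ± 0.69 and -0.35 ± 0.69 (30 then 100 µM EMD, at 24 h then 72 h) were not called. Myl9 (a regulatory light chain of myosin), Flna (filamin A, a crosslinker of filaments) and Pfn1 (profilin, which delivers actin monomers) were called in none of the 4 comparisons. Flna changed at 72 h by -0.9998 ± 0.37 with 30 µM EMD (adjusted p = 0.0736) and by -0.78 with 100 µM EMD. With the replicate block Flna was lower in all 4 comparisons (adjusted p = 0.0453 and 0.00797 at 24 h, 0.000102 and 0.00106 at 72 h with 30 and 100 µM EMD), and at 72 h also with array weights (adjusted p = 0.0291 and 0.0347) and without replicate 1 of the EMD group compared (adjusted p = 0.0485 and 0.0366). Pfn1 changed by -0.36 with 30 µM EMD at 72 h, which was called under 5 alternatives, namely the replicate block, a fit of the compared arrays alone, robust moderation along an intensity trend, array weights and dim probe sets left out (adjusted p = 0.017 to 0.0473).

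Among the 4 focal adhesion and crosslinking genes Vcl and Zyx moved in opposite directions. Vcl (vinculin) was the only member called higher in all 4 comparisons, and it was singled out after its values were seen. It gave at 24 h 9.63, 9.31 and 9.64 with DMSO, 10.10, 10.03 and 9.96 with 30 µM EMD and 9.82, 10.06 and 9.94 with 100 µM EMD. After 72 h the values were 9.35, 9.07 and 8.97 with DMSO, 9.43, 9.56 and 9.70 with 30 µM EMD and 9.64, 9.53 and 9.70 with 100 µM EMD, so that every EMD array was above every DMSO array at both times. Vcl rose by 0.50 ± 0.12 and 0.41 ± 0.12 at 24 h and by 0.43 ± 0.12 and 0.49 ± 0.12 at 72 h with 30 and 100 µM EMD (adjusted p = 0.0135, 0.042, 0.0137 and 0.00596). Of its 2 other probe sets, one rose in all 4 comparisons (changes of 0.71 ± 0.12, 0.62 ± 0.12, 0.59 ± 0.12 and 0.74 ± 0.12) and one in 3, the exception being 30 µM EMD at 24 h (0.40 ± 0.14, adjusted p = 0.118). On the first probe set the calls at 24 h were lost without EMD 30 µM 24 h replicate 1 or 2 or DMSO 24 h replicate 2 (adjusted p = 0.0511 to 0.0755) for 30 µM EMD, and without EMD 100 µM 24 h replicate 2 or 3 or DMSO 24 h replicate 1 or 2 (adjusted p = 0.0504 to 0.199) and in a fit of the compared arrays alone (adjusted p = 0.111) for 100 µM EMD. The call with 30 µM EMD at 72 h was lost without EMD 30 µM 72 h replicate 3 or DMSO 72 h replicate 2 or 3 (adjusted p = 0.0544 to 0.0754) and in a fit of the compared arrays alone (adjusted p = 0.0552).

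Zyx (zyxin), a LIM protein that gathers where filaments meet adhesions, averaged 8.47 ± 0.17 with 30 µM EMD and 8.50 ± 0.22 with 100 µM EMD at 72 h, against 9.22 ± 0.31 with DMSO (SD, n = 3 each). It fell by 0.76 ± 0.16 and 0.72 ± 0.16 (adjusted p = 0.00341 and 0.005). At 24 h Zyx changed by -0.35 and -0.39, called only with the replicate block among the alternatives (adjusted p = 0.0382 and 0.0199). The α-actinins Actn1 and Actn4 bundle filaments. Actn4 fell by 0.57 ± 0.17 with 30 µM EMD at 72 h (adjusted p = 0.0242), a call lost without EMD 30 µM 72 h replicate 2 or 3 or DMSO 72 h replicate 1 (adjusted p = 0.0587 to 0.123), and it changed by -0.48 ± 0.17 with 100 µM EMD (adjusted p = 0.0583). The change with 100 µM EMD was called with the replicate block (adjusted p = 0.0479), robust moderation along an intensity trend (adjusted p = 0.0491), array weights (adjusted p = 0.0351) and dim probe sets left out (adjusted p = 0.0421). Actn1 had larger estimates at 72 h, -1.46 ± 0.53 and -1.23 ± 0.53, but its arrays spread between 10.13 and 11.62 in DMSO at 72 h and no call was made (adjusted p = 0.0729 and 0.135). With the replicate block both changes of Actn1 were called (adjusted p = 0.000241 and 0.00115), as they were with array weights (adjusted p = 0.0291 and 0.0341). The change with 30 µM EMD was also called in a fit of the compared arrays alone (adjusted p = 0.0384) and without DMSO 72 h replicate 3 (adjusted p = 0.0441).

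Ezrin and moesin link filaments to the plasma membrane, ezrin mainly in epithelia. Ezr had values at 24 h of 7.44, 6.76 and 7.02 with DMSO, 7.58, 6.59 and 7.10 with 30 µM EMD and 7.30, 6.73 and 7.22 with 100 µM EMD. At 72 h they were 8.05, 7.45 and 7.64 with DMSO, 7.22, 6.37 and 6.52 with 30 µM EMD and 7.21, 6.28 and 6.68 with 100 µM EMD, and all EMD arrays lay below all DMSO arrays. Ezr did not pass the test at 24 h (0.01 ± 0.29 and 0.01 ± 0.29) and fell at 72 h by 1.01 ± 0.29 and 0.99 ± 0.29 with 30 and 100 µM EMD (adjusted p = 0.0214 and 0.0237). The call with 30 µM EMD was lost without EMD 30 µM 72 h replicate 2 or 3 or DMSO 72 h replicate 1 (adjusted p = 0.0844 to 0.106), and that with 100 µM EMD without EMD 100 µM 72 h replicate 2 or 3 or DMSO 72 h replicate 1 (adjusted p = 0.0734 to 0.122). Msn changed by -1.46 ± 0.52 with 30 µM EMD at 72 h (adjusted p = 0.0648), while its other probe set fell by 1.45 ± 0.44 (adjusted p = 0.0318). Msn was called at 72 h with the replicate block at both doses (adjusted p = 0.000223 with 30 µM and 0.0149 with 100 µM EMD). With 30 µM EMD it was also called with array weights, as the mean of all its probe sets, with dim probe sets left out (adjusted p = 0.0199 to 0.0475) and without EMD 30 µM 72 h replicate 1 or DMSO 72 h replicate 3 (adjusted p = 0.0171 to 0.0432). Tubb6, a β-tubulin of microtubules, was not called, with changes of -0.58 ± 0.21 and 0.18 ± 0.21 at 72 h (adjusted p = 0.0688 and 0.64). The change with 30 µM EMD was called with the replicate block (adjusted p = 0.0419), in a fit of the compared arrays alone (adjusted p = 0.0193) and with dim probe sets left out (adjusted p = 0.0497).

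In the TGFβ group the ligand Tgfb2, the receptor Tgfbr1 and the inhibitor Smad7 each passed the test in at least 1 comparison. Tgfb1, the ligand most studied in liver fibrosis, gave at 24 h 4.57, 4.48 and 4.65 with DMSO, 4.52, 4.59 and 4.51 with 30 µM EMD and 4.60, 4.29 and 4.71 with 100 µM EMD. At 72 h it gave 4.50, 4.49 and 4.68 with DMSO, 4.43, 4.50 and 4.62 with 30 µM EMD and 4.49, 4.42 and 4.70 with 100 µM EMD, and all of these lie under the array median. Tgfb2 was brighter. Its values at 24 h were 7.03, 6.40 and 5.46 with DMSO, 7.52, 6.85 and 7.86 with 30 µM EMD and 7.12, 6.90 and 7.25 with 100 µM EMD, higher with EMD in the estimate (1.12 ± 0.37 and 0.80 ± 0.37) without passing the test (adjusted p = 0.103 and 0.283). The 24 h estimate with 30 µM EMD was called with the replicate block (adjusted p = 0.0253) and without DMSO 24 h replicate 1 (adjusted p = 0.0301). At 72 h they were 8.53, 8.22 and 7.36 with DMSO, 7.30, 6.61 and 6.62 with 30 µM EMD and 7.64, 6.95 and 6.84 with 100 µM EMD. Tgfb2 fell by 1.19 ± 0.37 with 30 µM EMD at 72 h (adjusted p = 0.0344) and changed by -0.89 ± 0.37 with 100 µM EMD (adjusted p = 0.117; 0.038 with the replicate block, 0.0139 with array weights and 0.0365 without DMSO 72 h replicate 3), and its other probe set fell with 30 µM EMD too (-0.87 ± 0.27, adjusted p = 0.0368). The call was lost without EMD 30 µM 72 h replicate 2 or 3 or DMSO 72 h replicate 1 or 2 (adjusted p = 0.109 to 0.152) and with robust moderation along an intensity trend (adjusted p = 0.0627).

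Tgfbr1, the kinase receptor that passes the signal to Smad proteins, fell by small amounts in all 4 comparisons, by 0.34 ± 0.09 and 0.32 ± 0.09 at 24 h and by 0.44 ± 0.09 and 0.34 ± 0.09 at 72 h with 30 and 100 µM EMD (adjusted p = 0.0362, 0.04, 0.00206 and 0.0127). Its calls at 24 h were lost without EMD 30 µM 24 h replicate 1, 2 or 3 or DMSO 24 h replicate 1, 2 or 3 (adjusted p = 0.0544 to 0.147) and with array medians made equal, in a fit of the compared arrays alone or as the mean of all its probe sets (adjusted p = 0.0594 to 0.294) for 30 µM EMD. For 100 µM EMD at 24 h they were lost without EMD 100 µM 24 h replicate 2 or 3 or DMSO 24 h replicate 1, 2 or 3 (adjusted p = 0.054 to 0.194) and with array medians made equal, after cyclic loess, in a fit of the compared arrays alone, with robust moderation along an intensity trend or as the mean of all its probe sets (adjusted p = 0.051 to 0.515), and at 72 h without EMD 100 µM 72 h replicate 3 (adjusted p = 0.0754) and in a fit of the compared arrays alone (adjusted p = 0.0681). Smad7, itself a known target of the TGFβ signal, was low. Its values at 24 h were 5.13, 4.99 and 4.9999 with DMSO, 4.71, 4.62 and 4.61 with 30 µM EMD and 4.92, 4.74 and 4.65 with 100 µM EMD. At 72 h they were 4.50, 4.67 and 4.44 with DMSO, 4.57, 4.49 and 4.50 with 30 µM EMD and 4.64, 4.46 and 4.69 with 100 µM EMD. Smad7 fell by 0.39 ± 0.09 with 30 µM EMD at 24 h (adjusted p = 0.0149), changed by -0.27 ± 0.09 with 100 µM EMD (adjusted p = 0.0999, and 0.0464 without EMD 100 µM 24 h replicate 1), and stood near 0 at 72 h (-0.02 ± 0.09 and 0.06 ± 0.09). The call was lost without EMD 30 µM 24 h replicate 2 or 3 or DMSO 24 h replicate 1 (adjusted p = 0.0652 to 0.0693) and as the mean of all its probe sets (adjusted p = 0.15).

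Doses were compared directly for all 34 members at each time. At 24 h limma called none of them and no gene on the array, with 0% higher and 0% lower over all genes and 0 members at an unadjusted p under 0.05. At 72 h none of the members was called either, where 1.84% of all genes were higher and 2.45% lower with 100 µM than with 30 µM EMD, and 6 members had an unadjusted p under 0.05. The estimate, 100 µM minus 30 µM EMD, was below 0 for 25 of 34 members at 24 h and for 3 of 34 at 72 h. No share of all genes with such a sign or unadjusted p is given, so these counts show no excess among the members. For Ccn2 it was -0.38 ± 0.47 at 24 h (95% interval -1.37 to 0.61) and 0.19 ± 0.47 at 72 h (-0.80 to 1.18). For S100a6 it was 0.66 ± 0.39 at 72 h (-0.16 to 1.49), for Krt8 0.29 ± 0.11 (0.06 to 0.52) and for Tubb6 0.77 ± 0.21 (0.32 to 1.21). With the replicate block Tpm4 and Tubb6 were called higher with 100 µM than with 30 µM EMD at 72 h (adjusted p = 0.0139 and 0.0309), where it called 5.23% of all probe sets. Tubb6 was also called with array weights (adjusted p = 0.00375), with dim probe sets left out (adjusted p = 0.0416) and without EMD 100 µM 72 h replicate 1 (adjusted p = 0.0111). The intervals, which are not adjusted for the number of genes, lay above 0 for Krt8 and Tubb6 at 72 h. Those of Ccn2 and S100a6 include 0 and leave room for a difference between the doses.

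In DMSO cultures 8 members rose and 3 fell at 72 h relative to 24 h, against 11.9% higher and 11.9% lower over all genes, and the median member changed by 0.25, against -0.04 for all genes. Ccn1 rose by 2.17 ± 0.23 (adjusted p = 7.94e-06), Tagln by 2.38 ± 0.69 (adjusted p = 0.0214) and Tgfb2 by 1.74 ± 0.37 (adjusted p = 0.00335). Anxa1 (1.15 ± 0.23), Pfn1 (0.88 ± 0.12), S100a10 (0.73 ± 0.14), Lgals1 (0.71 ± 0.18) and Tgfbr1 (0.31 ± 0.09) rose as well. Zyx (-0.53 ± 0.16), Smad7 (-0.50 ± 0.09) and Vcl (-0.40 ± 0.12) fell. The probe sets of Vcl disagreed here, since one of the others fell with time (-1.20 ± 0.14, adjusted p = 1.82e-05) and the other rose (1.08 ± 0.12, adjusted p = 1.32e-05), so no direction over time is given for the gene. Ccn2 was high at both times, and its change of 0.81 ± 0.47 was not called (adjusted p = 0.236), although it was with the replicate block (adjusted p = 0.0406) and in a fit of the compared arrays alone (adjusted p = 0.0475). With the replicate block 17 members in place of 11 were called over time (26.4% of all probe sets), the additions being Ccn2 and rises of Tagln2 (0.59), Myl9 (0.84), Actn1 (0.69), Msn (0.87) and Ezr (0.64), with adjusted p of 0.000388 to 0.0424. Tagln2 was also called with array weights (adjusted p = 0.034) and without DMSO 24 h replicate 1 or DMSO 72 h replicate 3 (adjusted p = 0.0111 to 0.0418). The call of Tagln was lost without DMSO 24 h replicate 2 or 3 or DMSO 72 h replicate 1 or 2 (adjusted p = 0.055 to 0.103) and in a fit of the compared arrays alone or with robust moderation along an intensity trend (adjusted p = 0.0522 to 0.0719), that of Tgfbr1 without DMSO 24 h replicate 1 or 3 or DMSO 72 h replicate 1 or 3 (adjusted p = 0.0566 to 0.0759) and in a fit of the compared arrays alone (adjusted p = 0.0691), and that of Zyx without DMSO 24 h replicate 1 or 3 or DMSO 72 h replicate 2 or 3 (adjusted p = 0.0835 to 0.119) and in a fit of the compared arrays alone (adjusted p = 0.0809). The call of Vcl was lost without DMSO 24 h replicate 1 or 3 or DMSO 72 h replicate 2 or 3 (adjusted p = 0.0719 to 0.0935) and in a fit of the compared arrays alone or as the mean of all its probe sets (adjusted p = 0.0992 to 0.303), and that of Smad7 as the mean of all its probe sets (adjusted p = 0.158).

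The change with EMD at 72 h was compared with that at 24 h by an interaction term. With 30 µM EMD 2 members were called, both lower at 72 h, where 0.485% of all genes were called higher and 0.816% lower. They were Ccn1, with a difference between the changes of -1.41 ± 0.32 (adjusted p = 0.047), and Tgfb2, with -2.31 ± 0.52 (adjusted p = 0.0456), and both are genes that rose with time in DMSO. Both adjusted p lie close to the threshold. The call of Ccn1 was lost without EMD 30 µM 24 h replicate 1 or 3, EMD 30 µM 72 h replicate 2 or 3, DMSO 24 h replicate 1, 2 or 3 or DMSO 72 h replicate 1 or 2 (adjusted p = 0.0509 to 0.137) and after cyclic loess, in a fit of the compared arrays alone or with robust moderation along an intensity trend (adjusted p = 0.053 to 0.0646). That of Tgfb2 was lost without EMD 30 µM 24 h replicate 1 or 3, EMD 30 µM 72 h replicate 2 or 3, DMSO 24 h replicate 2 or 3 or DMSO 72 h replicate 1 or 2 (adjusted p = 0.0799 to 0.134) and after cyclic loess, in a fit of the compared arrays alone, with robust moderation along an intensity trend or as the mean of all its probe sets (adjusted p = 0.0583 to 0.0946). With 100 µM EMD limma called no member, where 0.338% of all genes were higher and 0.675% lower, and 7 members had an unadjusted p under 0.05. With the replicate block 9 members were called lower at 72 h with 30 µM EMD (2.98% of all probe sets in either direction), the additions being Krt8, Krt18, Tpm1, Tpm4, Ezr, Ccn2 and S100a10 (adjusted p = 0.00214 to 0.0343). With 100 µM EMD the block called Ezr, Ccn1 and Tgfb2 (1.72% of all probe sets, adjusted p = 0.00304 to 0.0484), and array weights called Ccn1 and Tgfb2 (adjusted p = 0.0267 to 0.0315). Without DMSO 72 h replicate 3 Anxa1 was called with 30 µM EMD (adjusted p = 0.0085), and without EMD 100 µM 72 h replicate 1 Ccn1 was called with 100 µM EMD (adjusted p = 0.0357). The estimate of the difference was below 0 for 31 of 34 members with 30 µM EMD and for 27 of 34 with 100 µM EMD. For these signs, and for the unadjusted p above, no share of all genes is given, so the counts show no excess among the members. The DMSO arrays enter both the DMSO time comparison and these interaction terms, so the 2 results are not independent.

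**Figure D3:**
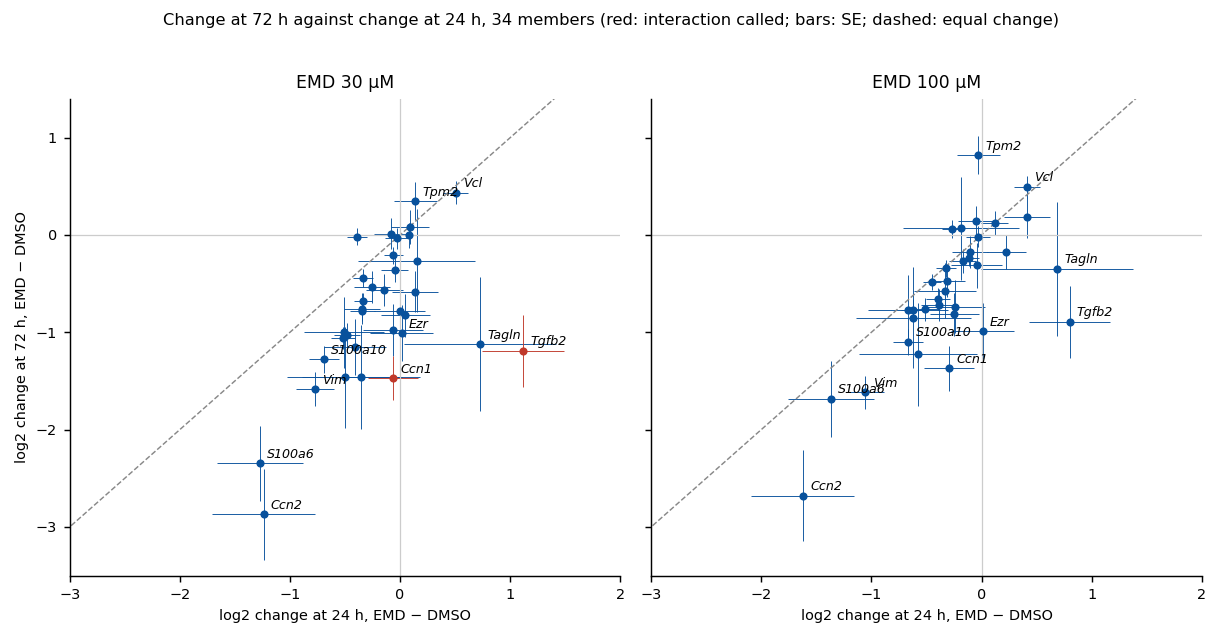
Log2 change with EMD against DMSO at 72 h (vertical axis) and at 24 h (horizontal axis) for the 34 members, with SE bars, for 30 µM EMD (left) and 100 µM EMD (right), and with red points where the interaction was called. Most points lie under the dashed line of equal change, and Tgfb2 and Ccn1 are the red points at 30 µM.

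Further genes of these pathways were read from 7 lists that hold no member and were also chosen with earlier results known. Over all genes at 72 h, 9.44% rose and 13% fell with 30 µM EMD, and 9.24% and 13% with 100 µM EMD. At 24 h 4.37% rose and 2.86% fell with 30 µM EMD, and 3.91% and 4.33% with 100 µM EMD. The 24 h counts of the first list lie near these shares. Among 32 measured regulators of actin and contractility, 16 fell with 30 µM EMD and 12 with 100 µM EMD at 72 h and 0 rose, and at 24 h 1 rose and 1 fell with 30 µM and 0 rose and 2 fell with 100 µM. Over this list of 32, 23 and 17 genes had an unadjusted p under 0.05 at 72 h, in either direction, with 30 and 100 µM EMD. Here and in the lists below no share of all genes at an unadjusted p is given, so such counts show no excess. Myh10, the heavy chain of non-muscle myosin IIB, had the largest fall at 72 h (-1.36 ± 0.32 with 30 µM and -1.28 ± 0.32 with 100 µM EMD). Rnd3, which opposes RhoA signalling, had the largest at 24 h (-0.68 ± 0.14 and -0.67 ± 0.14), and Rhob, a small GTPase, was the rise (0.37 ± 0.10 with 30 µM EMD at 24 h). Among 17 adhesion and LIM genes 10 fell with 30 µM and 6 with 100 µM EMD at 72 h, with Fhl2 (-1.65 ± 0.43, 30 µM) and paxillin, Pxn (-1.26 ± 0.21, 100 µM), falling most. Parvb (β-parvin, which joins integrin-linked kinase to actin) rose in all 4 comparisons, by 0.99 ± 0.11 and 0.76 ± 0.11 at 24 h, then by 1.004 ± 0.11 and 0.64 ± 0.11 at 72 h. In this list the largest falls at 24 h were those of radixin, Rdx (-0.54 ± 0.10 with 30 µM EMD), and Pxn (-0.84 ± 0.21 with 100 µM EMD), among 2 rises and 1 fall with 30 µM and 1 rise and 3 falls with 100 µM.

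Among 20 other TGFβ pathway genes 2 rose and 6 fell with 30 µM EMD and 2 rose and 7 fell with 100 µM EMD at 72 h, and 3 rose and 1 fell with 30 µM and 1 rose and 3 fell with 100 µM at 24 h. Id1, an inhibitor of differentiation known as a target of the BMP branch, rose with 30 and 100 µM EMD by 0.88 ± 0.16 and 1.27 ± 0.16 at 24 h and by 1.93 ± 0.16 and 2.37 ± 0.16 at 72 h. Inhba, a subunit of the TGFβ relative activin A, fell at 72 h (-2.23 ± 0.46 with 30 µM and -1.88 ± 0.46 with 100 µM EMD). At 24 h the largest rise with 30 µM EMD was that of Tgif1, a repressor of Smad targets (0.97 ± 0.25), and the largest falls were those of Smad1 (-0.37 ± 0.09, 30 µM) and the decoy receptor Bambi (-0.61 ± 0.15, 100 µM). Tgif1 fell instead with 100 µM EMD at 72 h (-0.85 ± 0.25), where the groups overlapped. Among 16 genes of the SRF and YAP routes 5 fell with 30 µM EMD at 72 h, and 1 rose and 7 fell with 100 µM EMD, while at 24 h the single call at each dose was a fall of Tead1, a TEAD factor (-0.48 ± 0.10 with 30 µM and -0.58 ± 0.10 with 100 µM EMD). Egr1, an immediate early gene under SRF, fell most at 72 h (-1.93 ± 0.53 and -2.48 ± 0.53 with 30 and 100 µM EMD), and the rise was that of Wwtr1, which encodes the YAP relative TAZ (0.44 ± 0.13).

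Among 25 mesenchymal and matrix genes calls went both ways, with 3 higher and 4 lower for 30 µM EMD and 4 higher and 2 lower for 100 µM EMD at 72 h, near the shares over all genes, and 1 higher and 1 lower for 30 µM and 2 higher and 1 lower for 100 µM at 24 h. Cdh2, N-cadherin, which hepatocytes also express, fell most at 24 h (-0.90 ± 0.16 and -1.32 ± 0.16 with 30 and 100 µM EMD) and with 100 µM at 72 h (-1.20 ± 0.16). Lox, a crosslinker of collagen, fell most with 30 µM EMD at 72 h (-1.54 ± 0.43). The largest rises were those of the protease Mmp14 (1.22 ± 0.23, 30 µM at 24 h), the crosslinking enzyme Tgm2 (1.20 ± 0.27, 100 µM at 24 h) and the collagen chain Col5a2 (1.31 ± 0.37 and 1.64 ± 0.37 with 30 and 100 µM at 72 h). Of 17 other S100, annexin and galectin genes 4 fell with each dose at 24 h, with Lgals3 (-0.91 ± 0.23, 30 µM) and S100a13 (-0.88 ± 0.12, 100 µM) falling most. At 72 h 8 fell with 30 µM and 7 with 100 µM EMD, led by Lgals2 (-1.37 ± 0.25 and -1.70 ± 0.25), and 1, Anxa11, rose with each dose (0.23 ± 0.08 and 0.27 ± 0.08). Of 15 tubulin, keratin and lamin genes limma called 0 at 24 h with either dose (4 with 30 µM and 6 with 100 µM EMD had an unadjusted p under 0.05). At 72 h 1 rose and 9 fell with 30 µM EMD, and 2 rose and 4 fell with 100 µM EMD. Tubb5 (-1.26 ± 0.28, 30 µM) and Lmnb1 (-0.85 ± 0.19, 100 µM) fell most, and Krt23, a type I keratin, rose (2.81 ± 0.16 with 30 µM and 2.04 ± 0.16 with 100 µM EMD).

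**Figure D4:**
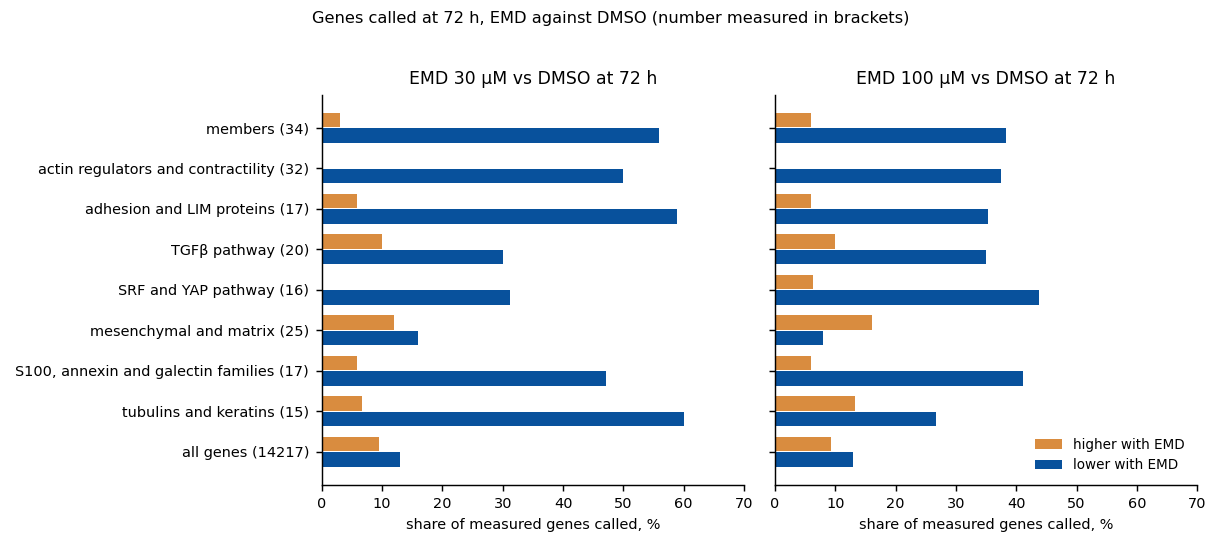
Share of measured genes called higher (orange) or lower (blue) with EMD against DMSO at 72 h, for the 34 members, 7 lists of related genes and all 14217 genes (number of genes in brackets), with 30 µM EMD (left) and 100 µM EMD (right). The lower share exceeds the 13% of all genes in every list except, at 100 µM, the mesenchymal and matrix genes.

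Several members are also expressed by other liver cells, so markers of these were read in the same arrays. All 9 measured markers of hepatocytes, the labelled cell type, were above the array median in every group. Their mean per array was 12.42 to 12.52 with 30 µM EMD and 12.32 to 12.42 with 100 µM EMD at 72 h, against 12.69 to 12.95 with DMSO. Calls of hepatocyte markers went both ways. At 72 h Serpina1 (-0.98 and -1.18), Apoa1 (-0.75 and -0.95), Cps1 (-0.54 and -0.56) and Ttr (-0.32 and -0.47) fell with 30 and 100 µM EMD. With 30 µM EMD at 72 h Fgb fell (-1.22) and Apob rose (0.62). At 24 h Fgb (-0.95) and Cps1 (-0.48) fell with 30 µM and Apoa1 (-0.38) with 100 µM EMD. The mean of 12 markers of stellate cells and fibroblasts was 4.14 to 4.27 with 30 µM and 4.16 to 4.28 with 100 µM EMD, against 4.28 to 4.36 with DMSO at 72 h, with 1 to 3 of the 12 above the array median in a group and with Col1a2 and Col3a1 averaging 3.69 and 4.13 over all arrays. Among them Reln fell at 72 h by 1.10 ± 0.27 and 1.26 ± 0.27 with 30 and 100 µM EMD. Rgs5 fell with 100 µM at 72 h (-0.64 ± 0.19), Des with 30 µM at 72 h (-0.33 ± 0.10) and Pdgfra with 30 µM at 24 h (-0.41 ± 0.11). The other markers of this list were not called with EMD. Of 10 measured macrophage markers the mean was 5.12 to 5.37 with 30 µM and 5.18 to 5.35 with 100 µM EMD, against 5.45 to 5.74 with DMSO at 72 h, and Lyz2, lysozyme, fell in all 4 comparisons (-1.22 ± 0.22 and -1.18 ± 0.22 at 24 h, -1.83 ± 0.22 and -1.68 ± 0.22 at 72 h, with 30 and 100 µM EMD). Cd14 fell only with 100 µM EMD at 72 h (-0.84 ± 0.18), and the other macrophage markers were called in none of the 4 comparisons. At 24 h the macrophage mean was 5.61 to 5.91 with 30 µM and 5.60 to 5.82 with 100 µM EMD, against 5.73 to 6.41 with DMSO. Of 8 endothelial markers 1 was above the array median, and of 6 cholangiocyte markers 1 to 2 were. The cholangiocyte marker Epcam rose with 30 µM EMD at 24 h (0.92 ± 0.25), where the groups overlapped. The part of these cells in the falls of Vim, S100a6, S100a10 and Anxa1 was not tested, and fewer cells of a type and less RNA per cell cannot be told apart in these samples. The 3′ minus 5′ difference of the β-actin control probe sets, which grows as RNA breaks down, was 0.85 with 30 µM and 0.85 with 100 µM EMD, against 0.70 with DMSO at 72 h. At 24 h it was 1.33 and 1.29 with 30 and 100 µM EMD, against 1.31 with DMSO. The same difference for GAPDH was 0.171 with 30 µM and 0.141 with 100 µM EMD, against 0.168 with DMSO at 72 h, and for hexokinase 1.498 and 1.67, against 1.57. The 3 transcripts did not move together at 72 h, and the part of RNA quality in the results was not tested.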

How the data were processed

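Per the labels, total RNA of 18 rat hepatocyte cultures was hybridised to Affymetrix rat arrays, 3 arrays for each of 6 groups. The authors computed the deposited log2 values with RMA in Expression Console and its standard rat library (version not given in the sources used here). RMA subtracts background, equalises the distributions of the arrays and condenses each probe set to 1 value, so low values are compressed and a shift of most genes is removed. Of 31099 probe sets 57 controls were left out. Platform annotation gave 20826 of the other 31042 a single symbol, 436 several and 9780 none, and 20758 of the first kind matched the RefSeq gene table by gene ID.

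A group-means model of the 6 groups was fitted over all arrays with limma 3.58.1 (lmFit, eBayes) under R 4.3.3. The moderated test was two-sided, with Benjamini-Hochberg adjustment over 31042 probe sets, a threshold of 0.05 and intervals at 95%. It was run on simulated data too. Their noise was independent between probe sets and arrays, without a replicate effect, so they cannot show how the test does under the shared deviations given below. The number of arrays limits the precision, and the median SE of a change was 0.116. The study's methods name no test for fold changes. They state 3 biological replicates and treatment of the cells of each animal, but the labels do not tie replicate numbers to animals. Same-numbered arrays within a time deviated together in 16 of 18 pairs (correlation over 0.1, median 0.37), against 7 of 36 pairs of different numbers (median -0.22), and all 18 arrays correlated best with arrays of their own number. The replicate block was therefore given beside the fit without it. The titles of the EMD cultures also call them biological replicates. The p-values measure only the spread among the arrays, and how much of it lies between animals cannot be told. The highest correlation of 2 arrays of a group was 0.9958, and none were identical.

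Members and lists were chosen with earlier results of these data known. Values of every array were given for members called in a comparison of EMD with DMSO, up to 14 by the largest change, and for Actg1, Acta2, Tgfb1, Tgfb2 and Smad7, and from each further list the called genes with the largest rise and fall. Vcl was added after its values were seen. Alternatives were cyclic loess, equal array medians, a replicate block, a fit of the compared arrays alone, an intensity trend with robust moderation, array weights, the mean of a gene's probe sets, leaving out dim probe sets, and leaving out each array. RefSeq promoters (GRCr8) were searched by letters alone. Scanner files and the human arrays were not used here.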

Additional observations from a re-analysis of the deposited data

Results flagged for a closer look

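The change with 30 µM EMD differed between 72 h and 24 h by the interaction test for Ccn1 and Tgfb2. The difference, the change at 72 h minus the change at 24 h, was -1.41 ± 0.32 for Ccn1 (limma, adjusted p = 0.047), which changed by -1.47 at 72 h and by -0.06 at 24 h. For Tgfb2 it was -2.31 ± 0.52 (limma, adjusted p = 0.0456), with a change of -1.19 at 72 h and 1.12 at 24 h. With each of the 12 arrays left out in turn, the call of Ccn1 held in 3 fits and that of Tgfb2 in 4.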

How the results depend on the processing

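With the replicate block the members called were 13 in place of 8 for 30 µM EMD at 24 h, 23 in place of 15 for 100 µM EMD at 72 h, 2 in place of 0 for the doses at 72 h, 17 in place of 11 for DMSO over time, and 9 in place of 2 and 3 in place of 0 for the interactions with 30 and 100 µM EMD, and it ended no call. For 30 µM EMD at 24 h a fit of the compared arrays alone called 4 and the mean of a gene's probe sets 5. Array weights called 1 between the doses at 72 h and 2 in the interaction with 100 µM EMD, and leaving out dim probe sets called 1 between the doses at 72 h. For the interaction with 30 µM EMD cyclic loess, a fit of the compared arrays alone and the intensity trend called 0, and the mean of a gene's probe sets called 1. Leaving out single arrays gave 1 to 6 calls for 30 µM and 4 to 9 for 100 µM EMD at 24 h, 12 to 21 and 12 to 18 at 72 h, 0 and 0 to 1 between the doses at 24 and 72 h, 7 to 10 for DMSO over time, and 0 to 3 and 0 to 1 for the interactions with 30 and 100 µM EMD. The cause of these shifts was not tested. For single members and comparisons 1318 alternative values kept the side of the threshold, 91 gained a call, 158 lost one and 0 changed sign with a call. A level near the array median shows no signal over background, which limits Tpm2, Col1a1, S100a4, Anxa1, Lgals1, Tgfb1 and Smad7.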
